A study of Mus musculus with 2 samples.

Results

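The genes described here are 40 type I interferon-stimulated genes, listed by symbol: antiviral effectors, sensors of viral nucleic acid, transcription factors and regulators that many cell types switch on after exposure to interferon. They were matched by exact symbol to the gene annotation of the deposited count matrices. Of the 40, 39 were found among the 32285 genes of the matrices, and Mx2 was not analysed here. The list was written by gene function and uses no measured value, but it was chosen with earlier results of these data known.

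Type I interferons, the interferon alpha and beta proteins, bind a receptor made of IFNAR1 and IFNAR2 on nearly all cells. The receptor's kinases JAK1 and TYK2 then activate STAT proteins, STAT2 among them, which join IRF9 in a complex (ISGF3) that binds a promoter element called the ISRE. Interferon gamma, made by T and NK cells, acts through its own receptor on another element (GAS), and it also raises many of the same genes, so a transcript of this list does not name the interferon behind it. In the brain and optic nerve, microglia and oligodendrocytes are known to carry such genes in inflammation, demyelination and ageing.

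Both groups were optic nerves of Nf1-OPG mice, a model of optic pathway glioma in neurofibromatosis, at 12 weeks of age. These mice carry a germline neomycin insertion in exon 31 of 1 Nf1 allele and lose the floxed other allele in neuroglial progenitors through GFAP-Cre (Nf1flox/neo; GFAP-Cre), so both groups share the Nf1 loss, and the stroma and immune cells keep 1 functional allele. The first group was given anti-PDCD1, an antibody against PD-1, and the second anti-TIGIT, an antibody against the receptor TIGIT; dose and schedule are not given in the sources used here. Nerves of 10 mice were pooled for each library, cleared of debris and myelin, sorted for live cells by exclusion of 7-AAD and profiled with a droplet 5′ kit. The protocol also mentions meningeal dura without saying whether any entered these libraries. Other Nf1 genotypes named in the study's design, and any untreated Nf1-OPG library, were not analysed here, so each value sets the antibodies against each other.

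There is 1 library per group. Each difference therefore has no replicate check, no test was run, and intervals in parentheses are 95% intervals that cover counting error only. The anti-PDCD1 library held 13997 barcodes and 85031565 UMIs, and the anti-TIGIT library 7915 barcodes and 40733655 UMIs; 163 barcodes were found in both. Filtering kept 13267 and 7503 cells with median depths of 4460 and 4126 UMIs in the anti-PDCD1 and anti-TIGIT libraries. The Cell Ranger version differed with the library (8.0.0 for anti-PDCD1, 8.0.1 for anti-TIGIT) and cannot be told apart from the treatment. Cells were assigned to a type when they held a UMI of at least 3 of that type's 6 marker genes and led every other type by at least 2, which placed 66.0% of anti-PDCD1 cells and 70.1% of anti-TIGIT cells. A gate's own markers lead it by construction. Outside those lists, Klk6, Mal and Hapln2 were among the leading genes of oligodendrocytes, Ptprz1, Cspg5 and Tnr of their precursors, Il1a, Gpr84 and Crybb1 of microglia, and Fcna and Lyve1 of border macrophages. Levels are UMIs of a gene per 1000000 UMIs of the cell type (CPM), without correction for gene length, so levels are compared within a gene and not between genes.

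The ISRE is the element through which ISGF3 acts, so the promoters of all members with a promoter window were searched for it. RefSeq promoter windows (GRCm38.p6, 250 bases before to 50 after a start) were matched for 30 of the 39 members; Zbp1, Usp18, Rtp4, Ifi27l2a, Parp14, Parp9, Ifi204, Dhx58 and Oas2 had none in that table. The ISRE letters searched were GAAA, any 2 bases, GAAA, or on the other strand TTTC, any 2 bases, TTTC, with overlapping matches counted. A match was present in 15 of the 30 members (50%) and in 1079 of 27025 genes (3.99%). The GAS letters, TTC, any 3 bases, GAA, which read the same on both strands, were present in 6 of 30 members (20%) and in 2582 genes (9.55%), and both motifs in 3 members (10.0%) and in 0.614% of genes. Members without a match included Irf7, Irf9, Oasl2, Xaf1, Herc6 and Cmpk2, and a match by letters is a description, not a binding site. The stretches below are written 5′ to 3′ on the gene's strand, with the matches in capitals.
Isg15, chr4:156200865-156200906, minus strand: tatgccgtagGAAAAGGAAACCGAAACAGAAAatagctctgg
Oas1a, chr5:120907520-120907555, minus strand: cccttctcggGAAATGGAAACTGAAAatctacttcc
Bst2, chr8:71537577-71537612, minus strand: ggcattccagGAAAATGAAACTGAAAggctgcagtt
Ifit1, chr19:34640775-34640823, plus strand: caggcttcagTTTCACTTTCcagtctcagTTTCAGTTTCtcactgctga
Ifit3, chr19:34583363-34583426, plus strand: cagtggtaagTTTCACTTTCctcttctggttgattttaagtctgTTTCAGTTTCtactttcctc
Ifit3b, chr19:34607759-34607822, plus strand: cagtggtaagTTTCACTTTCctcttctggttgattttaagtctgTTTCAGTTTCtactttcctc
Rsad2, chr12:26456553-26456582, minus strand: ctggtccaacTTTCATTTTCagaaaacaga
Stat2, chr10:128270266-128270295, plus strand: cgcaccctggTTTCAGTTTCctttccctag
Isg15 held 3 matches that overlap in 1 run, which began 78 bases before the start, Oas1a and Bst2 held 2 overlapping matches, and Ifit1, Ifit3 and Ifit3b 2 separate ones. The Ifit3 and Ifit3b stretches were letter for letter the same. These genes are near-identical copies, as the members Ifit1 and Ifit1bl1, the Oas genes and Ifi204, Ifi208 and Ifi209 are related copies, so the split of reads within each pair or family is uncertain.

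The members clustered in the genome. All 5 Ifit genes lie on chromosome 19 between 34550694 and 34650009 (mm10), and all 5 Oas and Oasl genes on chromosome 5. Ifi204, Ifi208 and Ifi209 lie on chromosome 1 between 173630917 and 173766943, and Rsad2 lies beside Cmpk2 on chromosome 12. Parp14, Dtx3l and Parp9 neighbour each other on chromosome 16, where the ends of Dtx3l and Parp9 overlap on opposite strands.

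Across cell types, the list stood apart between the libraries in the oligodendrocyte lineage, less in microglia, and little in border macrophages and regulatory T cells, which held high summed levels in both. Single genes made up much of those sums. In regulatory T cells Ifi27l2a held 59.7% of member UMIs with anti-PDCD1 and 56.9% with anti-TIGIT. In border macrophages Ifitm3 held 39.9% with anti-PDCD1 and 37.7% with anti-TIGIT. Summed over the 39 genes, oligodendrocytes held 1983 CPM (1963 to 2004) in the anti-PDCD1 library and 435 CPM (425 to 446) in the anti-TIGIT library, a 4.55-fold ratio. Oligodendrocyte precursor cells held 2560 CPM in the anti-PDCD1 library and 620 CPM in the anti-TIGIT library, a 4.13-fold ratio. Microglia held 4916 against 2783 CPM (anti-PDCD1 against anti-TIGIT), a 1.77-fold ratio. Of the 14 types compared, those with at least 50 cells in each library, border macrophages and regulatory T cells had intervals of the log2 ratio that held 0, and CD4 T cells and fibroblasts were lower in the anti-PDCD1 library.

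**Figure D1:**
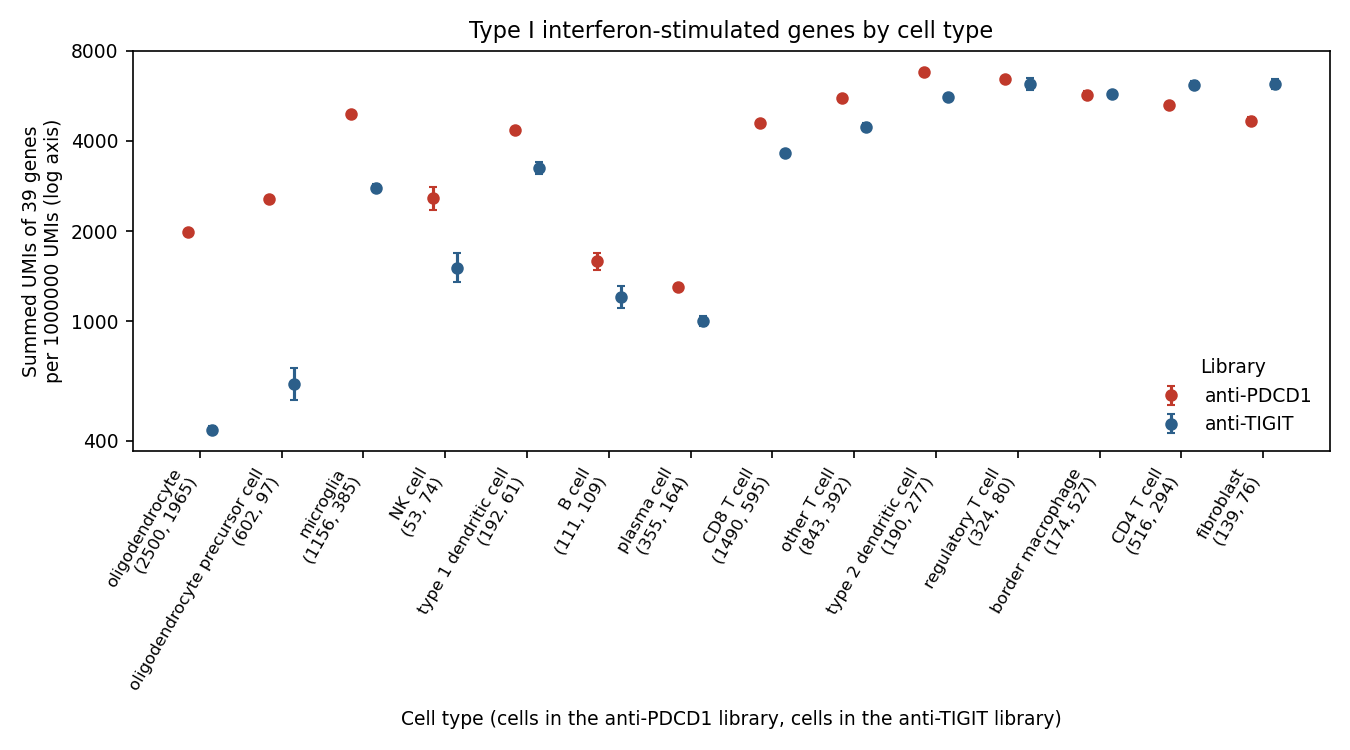
Summed UMIs of the 39 genes per 1000000 UMIs of each cell type (log axis), for the anti-PDCD1 library (left point of each pair) and the anti-TIGIT library (right point), with exact Poisson 95% intervals that cover counting error only; cell numbers stand under each name. The widest gap is in oligodendrocytes (1983 and 435 CPM) and the points of border macrophages (5708 and 5739 CPM) lie together.

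In the anti-TIGIT library oligodendrocytes were the type with the lowest summed level of the 14, at 435 CPM, while fibroblasts, regulatory T cells and CD4 T cells held 6158 to 6191 CPM. In the anti-PDCD1 library plasma cells (1306 CPM) and B cells (1589 CPM) lay below oligodendrocytes. The rank of oligodendrocytes, counted gene by gene among the 14 types, had a median of 11 in the anti-PDCD1 library and 13 in the anti-TIGIT library. Only Xaf1, which encodes an antagonist of the apoptosis inhibitor XIAP, was at its highest in oligodendrocytes, at 257 CPM in the anti-PDCD1 library; in the anti-TIGIT library no member was. Microglia were the highest type for 8 members in the anti-PDCD1 library and for 1 in the anti-TIGIT library. Fibroblasts were the highest type for 0 members in the anti-PDCD1 library and for 8 in the anti-TIGIT library. Rsad2 and Ifit3b were among those 8. For each, the richest of the 76 anti-TIGIT fibroblasts held most UMIs, 89.3% of Rsad2 and 67.7% of Ifit3b. How far the count of 8 rests on such cells was not tested. In both libraries together, 14 of the 39 members had the same highest type.

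In oligodendrocytes the whole list leaned one way. A gene entered a comparison with at least 10 UMIs over both libraries, and it counted as past 2-fold on the scale of log2(CPM + 5), where the pseudocount of 5 CPM holds low genes back. Of 35 members that entered, 27 were at least 2-fold higher in anti-PDCD1 oligodendrocytes and 0 at least 2-fold lower, while 1.77% of all 15495 genes were higher and 0.226% lower on the same scale. The median log2 ratio of (CPM + 5) was 1.63 over the members and -0.01 over all genes, and all 35 members lay above 0. The values rest on 2500 anti-PDCD1 and 1965 anti-TIGIT oligodendrocytes, with median depths of 6650 and 6278 UMIs. Below, ratios of single genes are of CPM without the pseudocount.

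Among the transcription factors, Stat2 and Irf9, which encode subunits of ISGF3, were both higher. Stat2 stood at 54.5 CPM in anti-PDCD1 oligodendrocytes and 19.5 CPM in anti-TIGIT oligodendrocytes, a log2 ratio of 1.48 (1.29 to 1.68). Irf9 stood at 45.2 CPM with anti-PDCD1 and 9.92 CPM with anti-TIGIT, a log2 ratio of 2.19 (1.93 to 2.46). Irf7, the factor that amplifies interferon alpha production, stood at 51.9 and 7.07 CPM in the anti-PDCD1 and anti-TIGIT libraries, a log2 ratio of 2.88 (2.58 to 3.19). All 3 were past 2-fold.

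Sensors of nucleic acid held the largest ratio among members with UMIs in both libraries. Zbp1, which binds Z-form nucleic acid and can start necroptosis, stood at 110 CPM (2043 UMIs) in anti-PDCD1 oligodendrocytes and 3.57 CPM (50 UMIs) in anti-TIGIT oligodendrocytes, a log2 ratio of 4.95 (4.55 to 5.39). Those UMIs came from 592 of the 2500 anti-PDCD1 cells and 22 of the 1965 anti-TIGIT cells, and the cell with most held 1.22% of the anti-PDCD1 UMIs. The RNA sensors MDA5 and RIG-I, encoded by Ifih1 and Ddx58, were lower in level but also past 2-fold. Ifih1 had 15.4 CPM with anti-PDCD1 and 3.35 CPM with anti-TIGIT, and Ddx58 had 13.8 CPM with anti-PDCD1 and 3.35 CPM with anti-TIGIT. Dhx58, which encodes their relative LGP2, and the p200 family genes Ifi204 and Ifi209 had at most 45 UMIs in the anti-PDCD1 library and at most 11 in the anti-TIGIT library. Their log2 ratios of 1.63 to 2.77 had intervals above 0, but at these levels they did not pass 2-fold once 5 CPM was added.

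The IFIT genes, whose proteins bind foreign RNA and block its translation, differed unequally. Ifit3 stood at 99.5 CPM in anti-PDCD1 oligodendrocytes against 15.8 CPM in anti-TIGIT ones, a log2 ratio of 2.65 (2.45 to 2.86). Ifit1 had 41.2 CPM with anti-PDCD1 and 6.21 CPM with anti-TIGIT, and Ifit3b had 51.3 CPM with anti-PDCD1 and 10.1 CPM with anti-TIGIT. Ifit2 had 54.4 and 29.1 CPM in the anti-PDCD1 and anti-TIGIT libraries, a log2 ratio of 0.90 (0.73 to 1.07), the smallest among the 35 members and the only one of the family with enough UMIs that did not pass 2-fold. Ifit1bl1 had 4 UMIs with anti-PDCD1 and 1 with anti-TIGIT, too few to compare.

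OAS proteins make short oligoadenylates that switch on RNase L, and OAS-like proteins act without that product. As a family they stood at 94.5 CPM in anti-PDCD1 oligodendrocytes and 6.495 CPM in anti-TIGIT oligodendrocytes, a log2 ratio of 3.86 (3.56 to 4.18). Oas1a accounted for 27.6 CPM (511 UMIs) with anti-PDCD1 and 1.07 CPM (15 UMIs) with anti-TIGIT, a log2 ratio of 4.69 (3.95 to 5.54). Oasl2 had 64.8 CPM with anti-PDCD1 and 4.78 CPM with anti-TIGIT, a log2 ratio of 3.76 (3.40 to 4.14). Oasl1 was at 28 UMIs with anti-PDCD1 and 5 with anti-TIGIT, and Oas2 and Oas3 were under 10 UMIs, so the family's difference rests on 2 of its 5 genes.

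The ISG15 system attaches a ubiquitin-like tag to proteins and removes it again. Isg15, the tag itself, stood at 81.7 CPM in anti-PDCD1 oligodendrocytes and 4.64 CPM in anti-TIGIT oligodendrocytes, a log2 ratio of 4.14 (3.78 to 4.52). Herc6, the main ligase for it in mice, had 45.5 CPM with anti-PDCD1 and 8.49 CPM with anti-TIGIT, a log2 ratio of 2.42 (2.14 to 2.71). Usp18, which removes the tag and also damps signalling at IFNAR2, had 49.0 CPM with anti-PDCD1 and 5.14 CPM with anti-TIGIT, a log2 ratio of 3.25 (2.90 to 3.62). Tag, ligase and protease were thus all past 2-fold.

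Among other antiviral effectors, 6 of 7 genes that entered were past 2-fold. Bst2, or tetherin, which holds budding virus at the cell surface, stood at 121 CPM in anti-PDCD1 oligodendrocytes and 13.1 CPM in anti-TIGIT oligodendrocytes, a log2 ratio of 3.20 (2.99 to 3.43). Rtp4, a receptor transport protein, had 91.5 CPM with anti-PDCD1 and 9.85 CPM with anti-TIGIT. Ifitm3, which hinders virus entry at membranes, had 33.6 CPM with anti-PDCD1 and 8.99 CPM with anti-TIGIT, so the abundant genes of this group differed by different amounts. Rsad2, or viperin, had 16.3 CPM with anti-PDCD1 and 2.64 CPM with anti-TIGIT. Its neighbour Cmpk2, a mitochondrial nucleotide kinase, had 17.4 CPM with anti-PDCD1 and 1.86 CPM with anti-TIGIT, and Trim30a had 8.05 CPM with anti-PDCD1 and 1.14 CPM with anti-TIGIT. Isg20, an exonuclease, was the gene that did not pass, at 58 UMIs with anti-PDCD1 and 12 with anti-TIGIT.

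The neighbours Parp14, Parp9 and Dtx3l, which encode ADP-ribosyltransferases and the ubiquitin ligase that pairs with PARP9, were all past 2-fold. Parp14 had 27.8 CPM in anti-PDCD1 oligodendrocytes and 1.499 CPM in anti-TIGIT oligodendrocytes, a log2 ratio of 4.21 (3.59 to 4.92). Dtx3l and Parp9, whose ends overlap, had log2 ratios of 3.96 (3.05 to 5.04) and 3.33 (2.69 to 4.04).

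Of the remaining genes, those that held most of the list's UMIs in the anti-TIGIT library differed least. Ifi27l2a, a small interferon-induced membrane protein, stood at 460 CPM in anti-PDCD1 oligodendrocytes and 152 CPM in anti-TIGIT oligodendrocytes, a log2 ratio of 1.59 (1.52 to 1.66). Xaf1 had 257 CPM with anti-PDCD1 and 87.0 CPM with anti-TIGIT, a log2 ratio of 1.56 (1.47 to 1.66). Together these 2 genes were thus a smaller part of the list with anti-PDCD1: Ifi27l2a made up 23.2% of member UMIs with anti-PDCD1 and 35.0% with anti-TIGIT, and Xaf1 12.98% with anti-PDCD1 and 19.98% with anti-TIGIT. Ifi35 had 71.5 CPM with anti-PDCD1 and 15.6 CPM with anti-TIGIT, and Lgals3bp, a secreted glycoprotein that binds galectin 3, had 27.2 CPM with anti-PDCD1 and 3.28 CPM with anti-TIGIT. Phf11d had 74 UMIs with anti-PDCD1 and 4 with anti-TIGIT. Ifi44 had 50 UMIs with anti-PDCD1 and 0 with anti-TIGIT, which makes it at least 12.6-fold higher against a floor of 3 counts in the anti-TIGIT library.

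**Figure D2:**
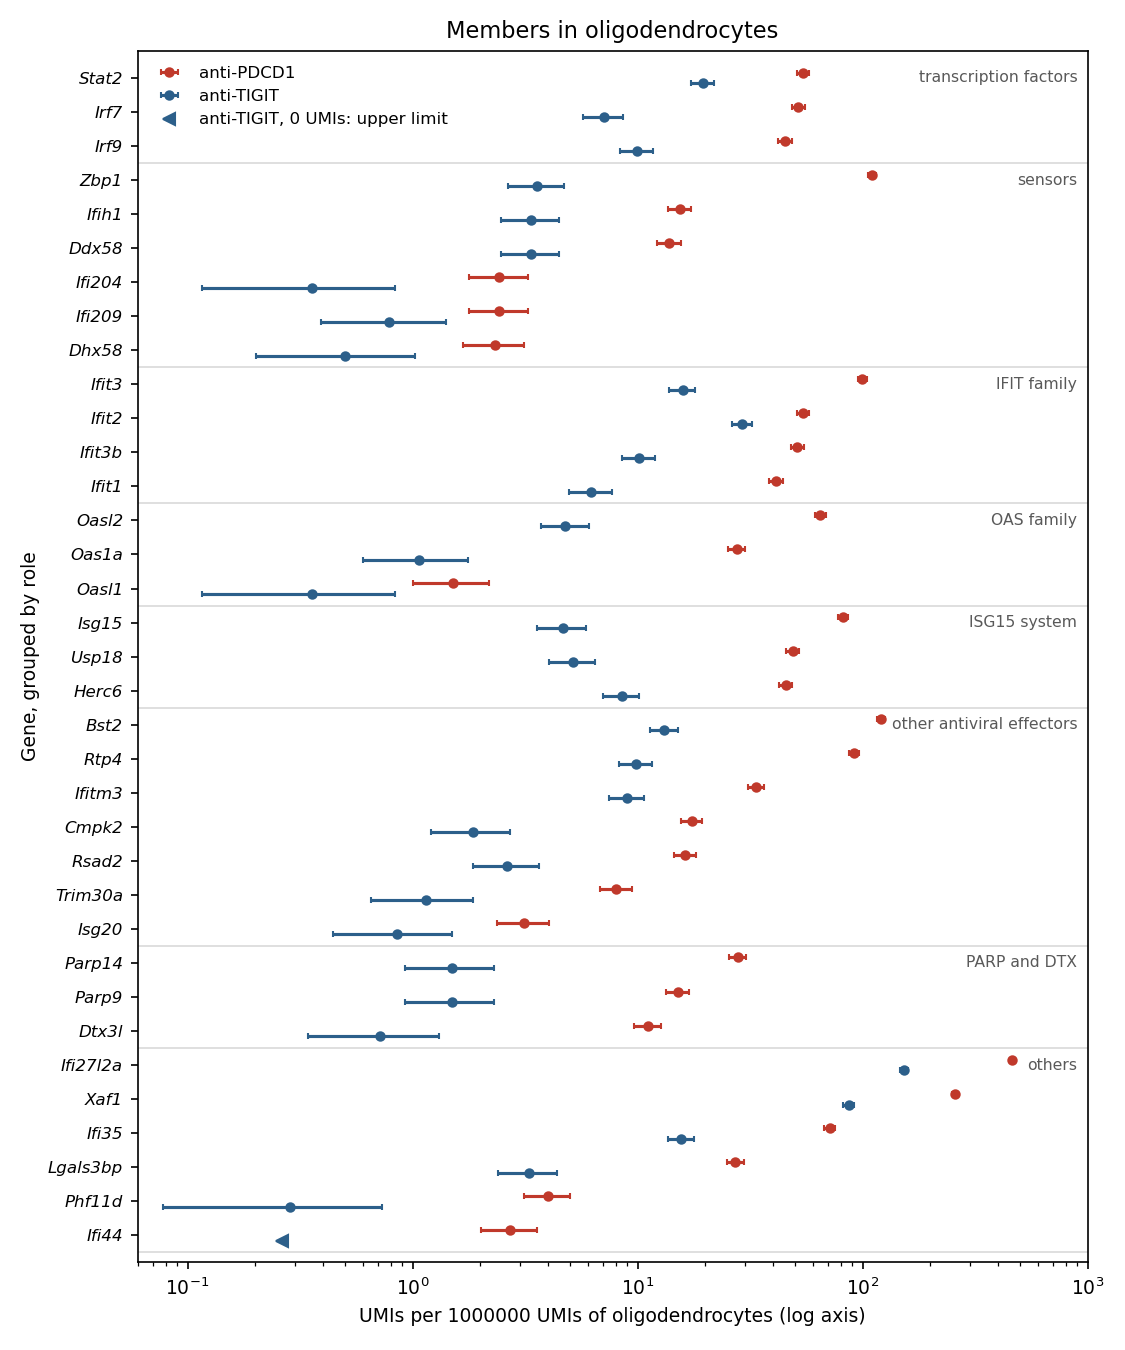
Level of each of the 35 members with at least 10 UMIs in oligodendrocytes, in UMIs per 1000000 UMIs (log axis), by role; points are the anti-PDCD1 and the anti-TIGIT library with exact Poisson 95% intervals, and the triangle is the upper limit of Ifi44, at 0 UMIs in the anti-TIGIT library. Every anti-PDCD1 point lies right of its anti-TIGIT point, with the gap narrowest for Ifit2 (54.4 and 29.1 CPM) and, among members with UMIs in both libraries, widest for Zbp1 (110 and 3.57 CPM).

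The difference was spread over many oligodendrocytes. With each cell thinned to 1000 UMIs, which left out 135 anti-PDCD1 and 38 anti-TIGIT cells, 26.9% (25.2 to 28.8) of 2365 anti-PDCD1 oligodendrocytes and 3.22% (2.48 to 4.11) of 1927 anti-TIGIT oligodendrocytes held at least 3 UMIs of the 39 genes. At least 1 such UMI was held by 57.4% of anti-PDCD1 and 23.1% of anti-TIGIT cells, and at least 5 by 14.9% of anti-PDCD1 and 1.505% of anti-TIGIT cells. Without thinning, at least 3 were held by 62.3% of anti-PDCD1 and 24.7% of anti-TIGIT cells. Thinned shares for single genes were 8.41% with anti-PDCD1 and 0.311% with anti-TIGIT for Zbp1, and 6.89% with anti-PDCD1 and 0.675% with anti-TIGIT for Isg15. No type in these nerves is known to lack such genes, so there was no negative type to set the free RNA level by.

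Members were enriched in the same oligodendrocytes but not confined to them. After thinning, a member outside the IFIT family was held by 86.7% of anti-PDCD1 cells with an IFIT UMI and 50.8% of those without. Of the thinned cells, 316 (13.4%) with anti-PDCD1 and 81 (4.20%) with anti-TIGIT held an IFIT UMI. In anti-PDCD1 cells the OAS family stood at 316 CPM where an IFIT UMI was present and 66.4 CPM where none was, and members outside the IFIT family at 5041 and 1340 CPM. Among anti-TIGIT cells the members outside the IFIT family stood at 1519 CPM in cells with an IFIT UMI and 302 CPM in cells without. These cells were split by what they held, so the values describe each library and compare nothing between treatments.

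**Figure D3:**
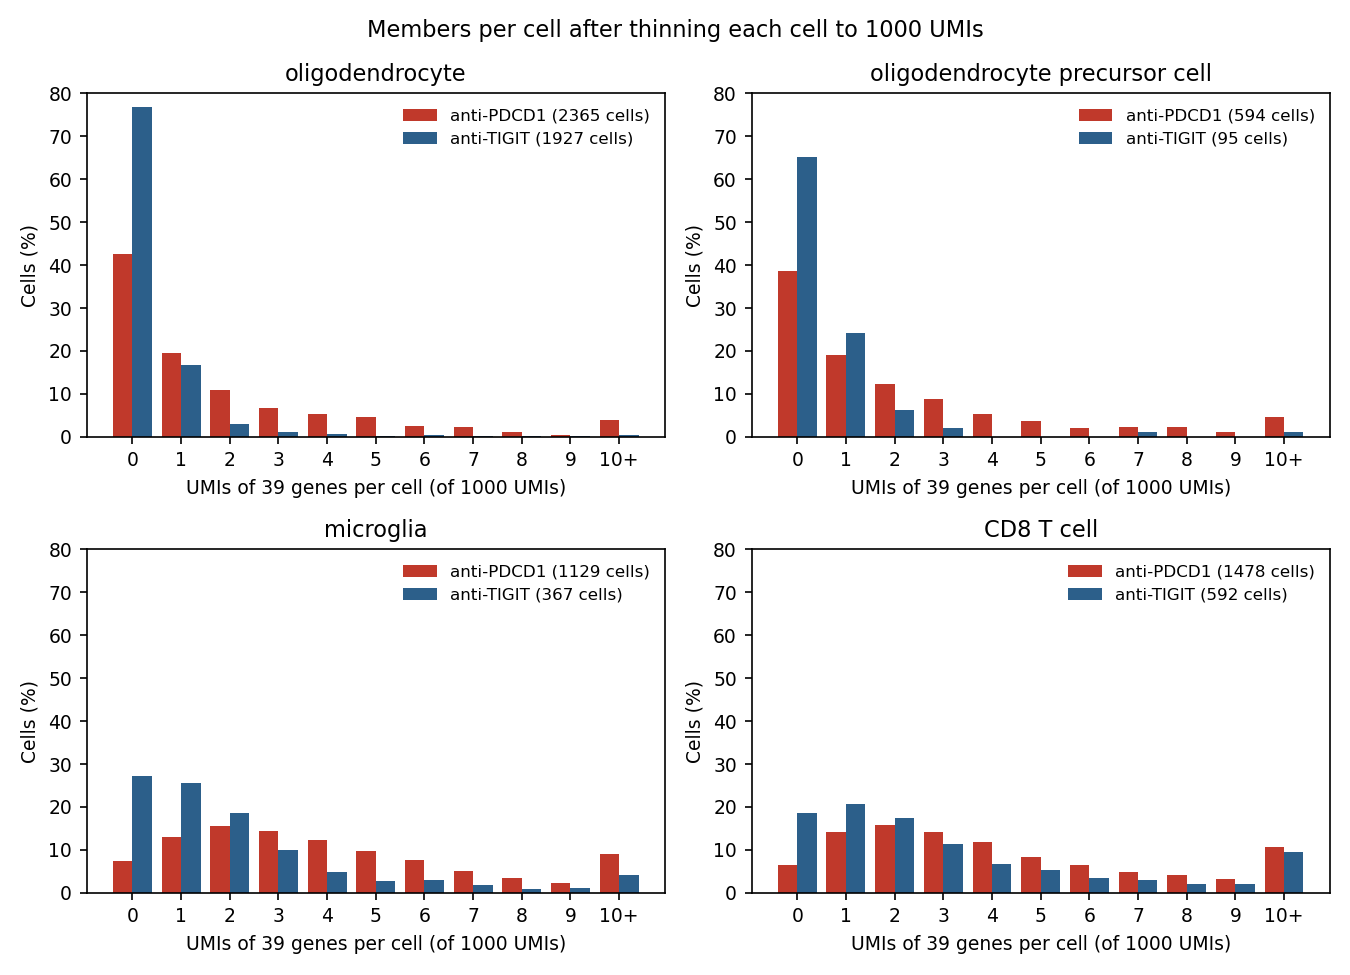
Share of cells (%) by the number of UMIs of the 39 genes in each cell after thinning to 1000 UMIs, in oligodendrocytes, their precursors, microglia and CD8 T cells, for the anti-PDCD1 library (left bar of each pair) and the anti-TIGIT library (right bar). With anti-PDCD1 26.9% of oligodendrocytes held at least 3 such UMIs and with anti-TIGIT 3.22%.

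Markers of other cells inside the oligodendrocyte gate also differed. The 6 T cell markers summed to 28.5 CPM in the anti-PDCD1 gate and 5.85 CPM in the anti-TIGIT gate, with none at 0 in either, and the 6 NK cell markers to 8.37 CPM with anti-PDCD1 (Klra8 at 0) and 0.357 CPM with anti-TIGIT (Klre1 and Eomes at 0). Plasma cell markers summed to 320 CPM with anti-PDCD1 and 83.9 CPM with anti-TIGIT, whose part in the result was not tested, microglial markers to 68.2 and 59.6 CPM with anti-PDCD1 and anti-TIGIT, and the oligodendrocyte markers themselves to 12638 and 12315 CPM with anti-PDCD1 and anti-TIGIT. In the 1444 anti-PDCD1 and 1293 anti-TIGIT oligodendrocytes that held no UMI of any T, NK, B cell, microglial or border macrophage marker, the list stood at 2106 and 419 CPM with anti-PDCD1 and anti-TIGIT. There 27 of 35 members were again at least 2-fold higher, against 1.56% of 13677 genes. Cells with monocyte or dendritic cell markers were not left out. In the whole gate monocyte markers summed to 18.6 CPM with anti-PDCD1 and 6.92 CPM with anti-TIGIT. Type 2 dendritic cell markers summed to 12.6 and 2.93 CPM, and type 1 dendritic cell markers to 87.7 and 110 CPM, with anti-PDCD1 and anti-TIGIT. Their part in the result was not tested. Among Xist-positive oligodendrocytes the log2 ratio of the summed list was 2.36, and among those with Y-linked transcripts 1.98, so cells of both sexes of the pools showed it.

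Oligodendrocyte precursor cells showed a similar lean on fewer cells, 602 with anti-PDCD1 and 97 with anti-TIGIT. Of 30 members that entered, 21 were at least 2-fold higher and 0 lower in the anti-PDCD1 library, against 4.28% and 2.41% of 13026 genes. The log2 ratio of the summed list was 2.05 (1.87 to 2.23), and the median log2 ratio of (CPM + 5) was 1.70 over members and -0.07 over all genes. Isg15 stood at 247 CPM (882 UMIs) in anti-PDCD1 precursors and 21.6 CPM (9 UMIs) in anti-TIGIT precursors, a log2 ratio of 3.51 (2.58 to 4.65). Ifi27l2a had 146 CPM with anti-PDCD1 and 14.4 CPM with anti-TIGIT, and Ifitm3 had 384 CPM with anti-PDCD1 and 48.0 CPM with anti-TIGIT. Irf7 had 120 UMIs with anti-PDCD1 and 0 with anti-TIGIT, which makes it at least 4.66-fold higher against a floor of 3 counts in the anti-TIGIT library. Not all members differed: Dtx3l had 18.2 CPM with anti-PDCD1 and 21.6 CPM with anti-TIGIT, Ifit2 had 43.1 and 45.6 CPM with anti-PDCD1 and anti-TIGIT, and Ddx58 had 31.4 and 28.8 CPM with anti-PDCD1 and anti-TIGIT. Ifit2 thus had the smallest ratio of the IFIT genes that entered in both oligodendrocytes and precursors. After thinning, at least 3 member UMIs were held by 30.1% (26.5 to 34.0) of 594 anti-PDCD1 precursors and 4.21% (1.16 to 10.4) of 95 anti-TIGIT precursors. In the gate, plasma cell markers summed to 211 CPM with anti-PDCD1 and 2657 CPM with anti-TIGIT, and their part in the result was not tested; T cell markers summed to 14.6 CPM with anti-PDCD1 and 12.0 CPM with anti-TIGIT.

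Microglia of the anti-PDCD1 library carried the list at a 1.77-fold level, a log2 ratio of 0.82 (0.78 to 0.87), with 8 of 38 members at least 2-fold higher and 0 lower, against 1.27% and 2.46% of 12583 genes. The largest ratios by the naming rule were those of Zbp1, Ifi44, Lgals3bp and Irf7. Zbp1 stood at 104 CPM in anti-PDCD1 microglia and 42.4 CPM in anti-TIGIT microglia, a log2 ratio of 1.29 (0.94 to 1.68). Lgals3bp had 578 CPM with anti-PDCD1 and 265 CPM with anti-TIGIT, and Irf7 had 159 CPM with anti-PDCD1 and 71.5 CPM with anti-TIGIT. Phf11d (53.9 CPM with anti-PDCD1, 57.6 CPM with anti-TIGIT) and Ifit3b (24.8 CPM with anti-PDCD1, 24.0 CPM with anti-TIGIT) were near 1. The median over all genes lay at -0.18 in this type; relative to it the summed list had a log2 ratio of 1.002 and 13 members passed. The microglial markers themselves summed to 2132 CPM with anti-PDCD1 and 4525 CPM with anti-TIGIT, border macrophage markers to 17.9 CPM with anti-PDCD1 and 126 CPM with anti-TIGIT, and median depths were 6862.5 UMIs with anti-PDCD1 and 3946 UMIs with anti-TIGIT; their part in the result was not tested. Among Xist-positive microglia the log2 ratio was 1.20, with 20 of 37 members at least 2-fold higher against 3.91% of 10468 genes. Among microglia with Y-linked transcripts it was 0.67, with 5 of 37 members higher against 2.26% of 10702 genes.

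Border macrophages, which line vessels and meninges, carried the list at nearly the same level in both libraries. They held 5708 CPM in the anti-PDCD1 library and 5739 CPM in the anti-TIGIT library, a log2 ratio of -0.01 (-0.06 to 0.04) over 174 anti-PDCD1 and 527 anti-TIGIT cells. None of 37 members was at least 2-fold higher or lower, against 1.02% and 1.99% of 10356 genes. By log2(CPM + 5), the largest ratio of a member with at least 20 UMIs was that of Ifih1, at 55.1 CPM with anti-PDCD1 and 35.0 CPM with anti-TIGIT, and the lowest that of Oasl2, at 39.98 CPM with anti-PDCD1 and 67.5 CPM with anti-TIGIT. Without the pseudocount Ifit2 lay lower, at 4 UMIs with anti-PDCD1 and 23 with anti-TIGIT, a log2 ratio of -1.06 (-3.05 to 0.49) against -0.76 (-1.39 to -0.17) for Oasl2. Of the Ifih1 UMIs in anti-PDCD1 border macrophages, 32.5% lay in 1 of 174 cells. Without the cell with most Ifih1 UMIs in each library, the Ifih1 log2 ratio of (CPM + 5) fell from 0.59 to 0.16. With cells thinned to 1000 UMIs the list's interval no longer held 0, at a log2 ratio of -0.14 (-0.26 to -0.02), with 1 member higher and 3 lower, against 3.04% and 10.9% of genes. Oasl2 was thus higher with anti-PDCD1 in oligodendrocytes and lower in border macrophages, a difference between types that was not tested.

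Dendritic cells leaned mildly upward. Type 2 dendritic cells held 6794 CPM with anti-PDCD1 and 5628 CPM with anti-TIGIT, a log2 ratio of 0.27 (0.23 to 0.31). Oasl2, Usp18 and Rtp4 were the 3 of 38 members at least 2-fold higher there and 0 were lower, against 1.12% and 1.34% of 10094 genes; Oasl2 stood at 71.3 CPM with anti-PDCD1 and 28.1 CPM with anti-TIGIT. Type 1 dendritic cells held 4360 CPM with anti-PDCD1 and 3250 CPM with anti-TIGIT, a log2 ratio of 0.42 (0.35 to 0.50), with 5 of 36 members higher and 2 lower, against 4.78% and 2.22% of 9712 genes. The genes lower there were Rsad2, at 12.6 CPM with anti-PDCD1 and 56.4 CPM with anti-TIGIT, and Cmpk2, at 5.14 CPM with anti-PDCD1 and 20.004 CPM with anti-TIGIT. Of the Rsad2 UMIs in anti-TIGIT type 1 dendritic cells, 93.5% lay in 1 of 61 cells. Leaving out, in each library, the cell with most member UMIs brought the counts to 12 of 35 members higher and 0 lower, against 4.93% and 2.11% of 9701 genes.

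In CD8 T cells the direction of the summed list turned on 1 gene. CD8 T cells held 4604 CPM with anti-PDCD1 and 3648 CPM with anti-TIGIT, a log2 ratio of 0.34 (0.30 to 0.37), and Ifi27l2a made up 49.4% of member UMIs with anti-PDCD1 and 31.0% with anti-TIGIT. Ifi27l2a stood at 2274 CPM in anti-PDCD1 CD8 T cells and 1129 CPM in anti-TIGIT CD8 T cells, and without it the list's log2 ratio turned to -0.11. Only Ifi27l2a and Ifitm3 (89.6 CPM with anti-PDCD1, 20.1 CPM with anti-TIGIT) were at least 2-fold higher among 38 members, and 1 was lower, against 1.88% and 0.73% of 12743 genes. The gene lower was Ifi208, a p200 family member, at 9.93 CPM with anti-PDCD1 and 32.8 CPM with anti-TIGIT, a log2 ratio of -1.72 (-2.22 to -1.23). Among CD8 T cells with Xist UMIs (420 with anti-PDCD1, 67 with anti-TIGIT) the list had a log2 ratio of 1.27. There 9 of 33 members were higher and 1 lower, against 11.5% and 4.72% of 10041 genes. In CD8 T cells with Y-linked transcripts the ratio was 0.29. In the gate, plasma cell markers summed to 479.6 CPM with anti-PDCD1 and 1101 CPM with anti-TIGIT, and NK cell markers to 188 CPM with anti-PDCD1 and 366 CPM with anti-TIGIT; their part in the result was not tested.

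CD4 T cells went the other way. The list stood at 5270 CPM with anti-PDCD1 and 6158 CPM with anti-TIGIT, a log2 ratio of -0.22 (-0.27 to -0.18), with 1 of 38 members at least 2-fold higher and 4 lower, against 3.68% and 0.913% of 10843 genes. Without Ifi27l2a the ratio lay further below 0, at -0.39 (-0.46 to -0.33). Lower were Ifi208 (8.20 CPM with anti-PDCD1, 32.3 CPM with anti-TIGIT), Ifit3b (13.5 CPM with anti-PDCD1, 45.2 CPM with anti-TIGIT), Ifit3 (23.1 CPM with anti-PDCD1, 68.9 CPM with anti-TIGIT) and Rsad2 (19.3 CPM with anti-PDCD1, 45.2 CPM with anti-TIGIT). As a family the IFIT genes stood at 103 CPM with anti-PDCD1 and 243 CPM with anti-TIGIT, a log2 ratio of -1.24 (-1.52 to -0.97). The 6 plasma cell markers summed to 1083 CPM in the anti-PDCD1 CD4 gate (Tnfrsf17 at 0) and 173 CPM in the anti-TIGIT gate (Sdc1 and Tnfrsf17 at 0), and the 6 B cell markers to 98.4 CPM with anti-PDCD1 (none at 0) and 3.23 CPM with anti-TIGIT (4 at 0); their part in the result was not tested. Regulatory T cells held 6431 CPM with anti-PDCD1 and 6183 CPM with anti-TIGIT, a log2 ratio of 0.06 (-0.01 to 0.13). It was 0.12 (0.05 to 0.20) without the richest cell of each library. A looser gate gave -0.04 (-0.11 to 0.03), thinning to 1000 UMIs -0.12 (-0.25 to 0.02) and leaving out Ifi27l2a -0.04 (-0.15 to 0.07). In the main run of this type 1 of 34 members was higher and 2 lower, Cmpk2 and Herc6, against 5.77% and 3.5% of 9847 genes. Ifitm3 had 200 CPM with anti-PDCD1 and 105 CPM with anti-TIGIT in regulatory T cells. In the other T cells, which included gamma delta T cells by their leading genes, the log2 ratio was 0.33 (0.28 to 0.37) and without Ifi27l2a -0.04. Of 38 members there 0 were higher and 2 were lower, Ifi208 and Oas3, against 2.49% and 0.805% of 11805 genes. Ifi208 entered the comparison in CD8, CD4 and other T cells and was at least 2-fold lower with anti-PDCD1 in these 3.

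NK cells, B cells and plasma cells had log2 ratios of 0.77 (0.57 to 0.98), 0.39 (0.24 to 0.55) and 0.38 (0.31 to 0.44) for the summed list. With cells thinned to 1000 UMIs the intervals of these 3 types held 0, at 0.18 (-0.24 to 0.59) in NK cells, 0.13 (-0.22 to 0.49) in B cells and 0.10 (-0.15 to 0.36) in plasma cells. Thinning discards counts and widens the intervals, so these values cannot show that a difference is absent. The ratios themselves also fell, and in NK cells and plasma cells the full-count ratio lay above the thinned interval. The cause of that fall was not tested. At full counts, without the richest cell of each library, the intervals lay above 0. The ratios were then 0.28 (0.05 to 0.52) in NK cells, 0.38 (0.22 to 0.55) in B cells and 0.36 (0.29 to 0.42) in plasma cells. Without Ifi27l2a the ratio in B cells was 0.15 (-0.03 to 0.33). In the 53 anti-PDCD1 and 74 anti-TIGIT NK cells 8 of 24 members were at least 2-fold higher and 0 lower, against 6.61% and 5.67% of 5736 genes. Of the member UMIs in anti-PDCD1 NK cells, 39.5% lay in 1 cell. Without the richest cell of each library 3 of 20 members were higher and 1 lower in NK cells, against 6.2% and 5.55% of 5567 genes. B cells had 5 of 23 members higher and 0 lower, against 3.88% and 6.51% of 8213 genes; Ifitm3 stood at 187 CPM in anti-PDCD1 B cells and 76.5 CPM in anti-TIGIT B cells. Plasma cells had 2 of 34 members higher, Rsad2 and Rtp4, and 0 lower, against 1.9% and 0.728% of 10441 genes. Without the richest cells 0 of 34 were higher in plasma cells, against 1.74% of 10405 genes.

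Fibroblasts held 4675 CPM with anti-PDCD1 and 6191 CPM with anti-TIGIT, a log2 ratio of -0.41 (-0.47 to -0.34). Of 32 members 1 was at least 2-fold higher, Zbp1, and 9 were lower, against 4.05% and 3.27% of 10346 genes. The lowest ratio was that of Rsad2, at 5.45 CPM with anti-PDCD1 and 64.7 CPM with anti-TIGIT, and Ifit3b had 31.8 CPM with anti-PDCD1 and 222 CPM with anti-TIGIT. For each gene, the anti-TIGIT cell with most UMIs, of 76 cells, held 89.3% of Rsad2, 67.7% of Ifit3b and 78.6% of Ifit2 UMIs there; whether these were the same cell was not tested. Without the richest cell of each library the list stood at 4276 CPM with anti-PDCD1 and 5320 CPM with anti-TIGIT. Of 29 members 1 was then higher and 2 lower, against 3.8% and 3.27% of 10273 genes. In the gate, pericyte or smooth muscle cell markers summed to 134 CPM with anti-PDCD1 (Rgs5 at 0) and 342 CPM with anti-TIGIT (Kcnj8, Abcc9 and Acta2 at 0), and plasma cell markers to 261 CPM with anti-PDCD1 (Tnfrsf17 at 0) and 53.1 CPM with anti-TIGIT (Tnfrsf17 and Tnfrsf13b at 0); their part in the result was not tested.

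**Figure D4:**
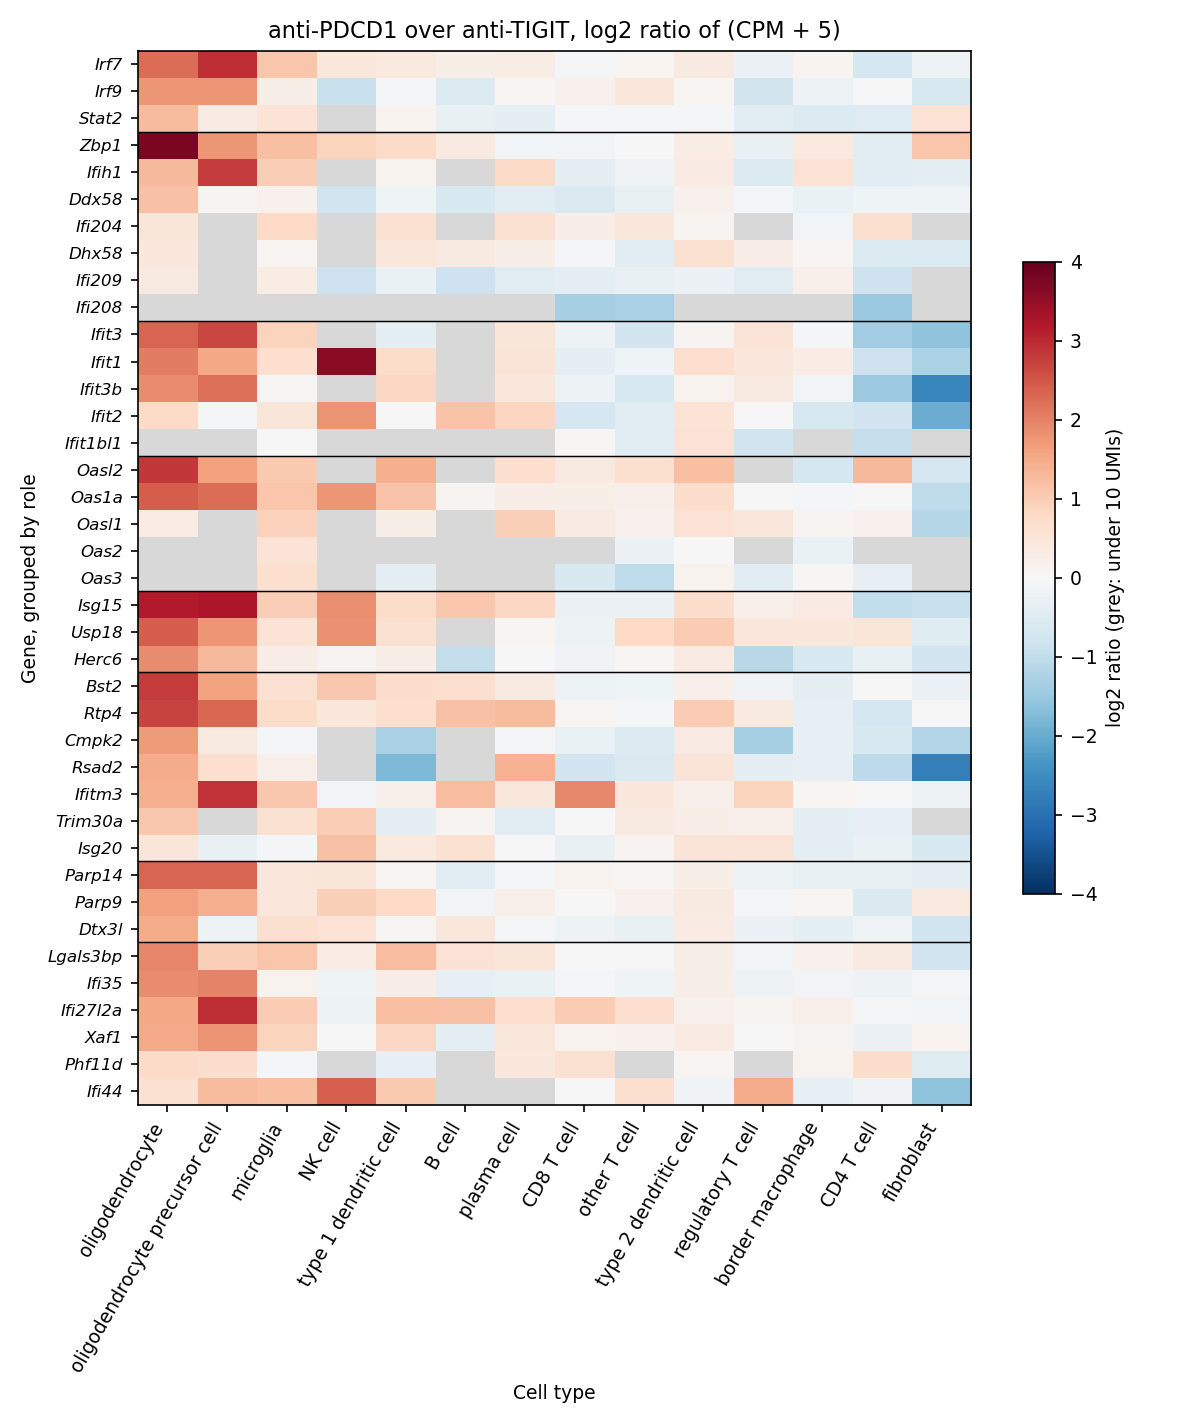
Log2 ratio of (CPM + 5), anti-PDCD1 over anti-TIGIT, for each member (rows, by role) in each of the 14 cell types (columns, ordered by the ratio of the summed list); red is higher and blue lower in the anti-PDCD1 library, and grey cells had under 10 UMIs. The oligodendrocyte column is red in all 35 members shown, while the CD4 T cell column is mostly blue.

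The other genes of the pathway were measured in oligodendrocytes as well, where 1.77% of all genes were at least 2-fold higher and 0.226% lower. Receptor genes were near level: none of 5 that entered was at least 2-fold higher or lower. Ifnar1 stood at 22.3 CPM with anti-PDCD1 and 22.2 CPM with anti-TIGIT, and Ifnar2 at 75.2 and 63.0 CPM with anti-PDCD1 and anti-TIGIT. Ifngr1, a chain of the interferon gamma receptor, had 31.4 CPM with anti-PDCD1 and 20.6 CPM with anti-TIGIT. Of 7 signalling genes 2 were higher and 0 lower. Irf1, an interferon regulatory factor, stood at 85.0 CPM in anti-PDCD1 oligodendrocytes and 5.996 CPM in anti-TIGIT oligodendrocytes, a log2 ratio of 3.83 (3.51 to 4.16). Irf8, another such factor, had 11.2 CPM with anti-PDCD1 and 1.78 CPM with anti-TIGIT, while the kinases stayed close, with Jak1 at 53.6 CPM with anti-PDCD1 and 40.3 CPM with anti-TIGIT and Tyk2 at 6.65 CPM with anti-PDCD1 and 7.49 CPM with anti-TIGIT. Among 8 brakes on signalling 3 were higher and 0 lower: Socs3 (42.1 CPM with anti-PDCD1, 3.35 CPM with anti-TIGIT), Socs1 (13.3 CPM with anti-PDCD1, 1.499 CPM with anti-TIGIT) and the phosphatase gene Ptpn6 (6.59 CPM with anti-PDCD1, 0.785 CPM with anti-TIGIT). None of 6 other nucleic acid sensors and adaptors passed in either direction. Markers of T and NK cells in this gate differed too, and their part in the Irf8 and Ptpn6 values was not tested.

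Genes that interferon gamma is best known to raise had the larger ratios in oligodendrocytes. Of 8 that entered, 7 were at least 2-fold higher in anti-PDCD1 oligodendrocytes and 0 lower, with a median log2 ratio of (CPM + 5) of 3.52 beside 1.63 for the 35 members. Gbp2, a guanylate-binding protein gene, stood at 108 CPM (1990 UMIs) with anti-PDCD1 and 0.999 CPM (14 UMIs) with anti-TIGIT, a log2 ratio of 6.75 (5.999 to 7.62). Irgm1 and Igtp, GTPases that act against intracellular pathogens, had 323 and 329 CPM with anti-PDCD1, against 17.9 and 22.1 CPM with anti-TIGIT. Type I interferons raise these genes too, so the lists do not separate the interferons. In precursor cells 7 of 9 such genes were higher, in microglia and in type 1 dendritic cells 5 of 8 each, in type 2 dendritic cells 3 of 8, in plasma cells 3 of 9, in B cells 2 of 8 and in fibroblasts 2 of 7. One was higher in border macrophages and in each of the T and NK cell types, and none was lower in any type. In CD8, CD4, regulatory and other T cells that gene was Cxcl9, and in NK cells Gbp5. Cxcl9 was also among the genes counted in plasma cells, B cells and fibroblasts. It stood at 772 and 114 CPM in microglia and 30.9 and 2.62 CPM in CD8 T cells, with anti-PDCD1 and anti-TIGIT. The part of free RNA in the Cxcl9 values was not tested. The share of all genes at least 2-fold higher lay between 1.02% (border macrophages) and 6.61% (NK cells) over the 14 types, with 1.77% in oligodendrocytes, 1.27% in microglia and 4.78% in type 1 dendritic cells.

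**Figure D5:**
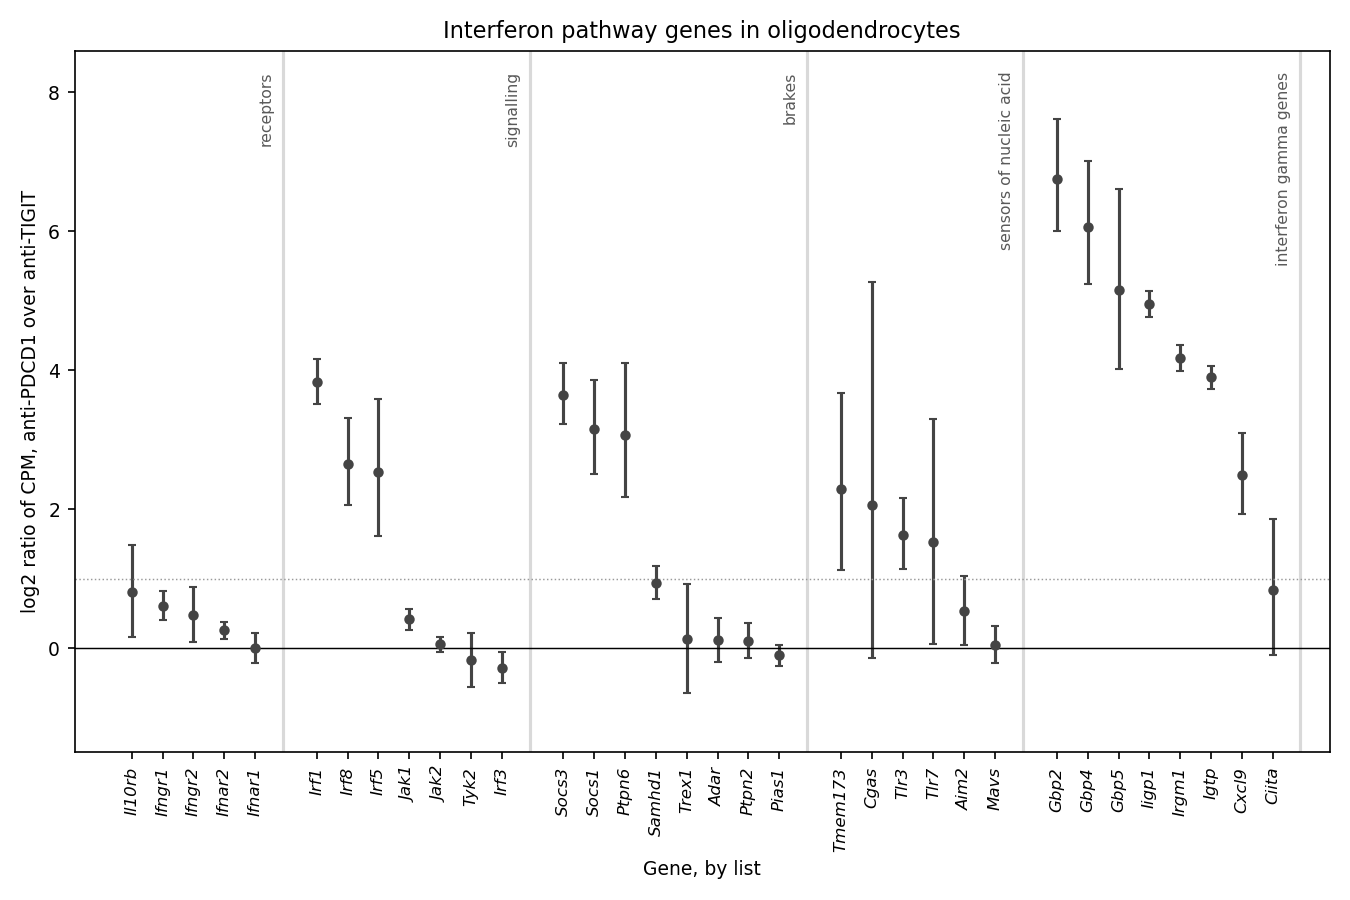
Log2 ratio of CPM in oligodendrocytes, anti-PDCD1 over anti-TIGIT, for pathway genes with at least 10 UMIs, by list, with exact 95% intervals that cover counting error only; the dotted line marks 2-fold. Receptors lie near 0 (Ifnar1 at 0.00), Irf1 at 3.83, and the interferon gamma genes reach 6.75 (Gbp2).

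Transcripts of the interferons themselves were rare or came from lymphocytes. The alpha genes searched (Ifna1, Ifna2, Ifna4, Ifna5, Ifna6 and Ifna12), Ifne, Ifnl2 and Ifnl3 had 0 UMIs in both libraries. Ifnb1 had 23 UMIs in 3 cells of the anti-PDCD1 library, all microglia, and 12 UMIs in 2 cells of the anti-TIGIT library. Ifng had 2251 UMIs in 965 cells with anti-PDCD1 and 931 UMIs in 439 cells with anti-TIGIT. Per type, Ifng stood at 144 CPM in anti-PDCD1 CD8 T cells and 142 CPM in anti-TIGIT CD8 T cells, and at 180 CPM in anti-PDCD1 CD4 T cells and 301 CPM in anti-TIGIT CD4 T cells. In oligodendrocytes it had 12 UMIs with anti-PDCD1 and 3 with anti-TIGIT. Protein, and interferon made by cells outside these libraries, were not measured.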

How the data were processed

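The authors deposited tables of UMI counts for every gene in every barcode, computed with Cell Ranger 8.0.0 (anti-PDCD1) and 8.0.1 (anti-TIGIT), per the file headers, on mm10, per the submitters' processing notes, which also name Seurat 5.0.3 and R 4.1.1. The members and all other lists were chosen with earlier results of these data known.

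Cells under 200 genes or over 10% mitochondrial UMIs were left out, and Scrublet (scanpy 1.11.5, run per library) removed 584 and 147 doublets (4.22% of anti-PDCD1 and 1.92% of anti-TIGIT cells). T cells of the marker gate were split by Cd8a or Cd8b1, Cd4 and Foxp3. Counts were summed per type and library. CPM has exact Poisson intervals, the log2 ratio of anti-PDCD1 over anti-TIGIT an exact conditional binomial interval, and shares exact Clopper-Pearson intervals; all are 95% intervals. UMIs limit PCR copies, and intervals and floors cover counting error only. The calculation was tested on simulated data. Genes were named by rule: in oligodendrocytes every member with at least 10 UMIs, and in other types up to 8, from the 4 largest and 4 smallest log2 ratios of (CPM + 5) with at least 20 UMIs; Xaf1 by highest type, IFIT cells and Ifi208 across T cells were chosen after their values were seen. Positions are from GENCODE on GRCm38, which mm10 shares. Results for a few genes are left out and not reported. Cells in no gate, and types under 50 cells in a library, entered no comparison. Software was Python 3.11.15, numpy 2.4.6, scipy 1.17.1, pandas 2.3.3 and matplotlib 3.10.9.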

Additional observations from a re-analysis of the deposited data

Results flagged for a closer look

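The summed list went against the direction of most types in CD4 T cells (log2 ratio -0.22) and fibroblasts (-0.41), where it was lower with anti-PDCD1; the differences between types were not tested. Monocytes were not compared, with 20 cells in the anti-PDCD1 library and 27 in the anti-TIGIT library, but they held the list at the highest level of any type, 17786.8 CPM with anti-PDCD1 and 13149.7 CPM with anti-TIGIT.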

How the results depend on the processing

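In oligodendrocytes the log2 ratio of the summed list, 2.19, was 1.99 without doublet removal, 2.31 after thinning to 1000 UMIs, 2.36 in Xist-positive cells and 1.98 in those with Y-linked transcripts; the count of 27 members stayed within 1.5 times under each alternative run. Leaving out cells with a UMI of 5 immune marker lists, cells with shared barcodes, and the cell with most member UMIs of each library were alternatives chosen after seeing the data: the first gave 2.33 in oligodendrocytes and the last 2.27 in precursors, against 2.05. In microglia (0.82, 8 members higher) a looser gate gave 0.69 and 3 members (beside 1.32% of all genes), thinning 0.75, Xist-positive cells 1.20 and 20 (3.91%) and Y-linked cells 0.67 and 5 (2.26%). There scaling to the median of all genes gave 1.002 and 13, and a pseudocount of 20 CPM 2 members. In border macrophages (-0.01, 0 members higher or lower) thinning gave -0.14 (-0.26 to -0.02), 1 member higher and 3 lower (beside 3.04% and 10.9% of all genes), Xist-positive cells 0.048, 2 higher and 3 lower (2.44% and 5.38%), and leaving out members over 25% of the UMIs -0.060. In CD8 T cells (0.34, 2 members) a looser gate gave 0.26 and 0, Xist-positive cells 1.27 and 9 (beside 11.5% of all genes), Y-linked cells 0.29, leaving out Ifi27l2a -0.11, and no doublet removal, limits of 500 genes and 5% mitochondrial UMIs, no shared barcodes or a pseudocount of 20 CPM 1 member each. In other T cells leaving out Ifi27l2a gave -0.039. The difference in the share of oligodendrocytes with at least 3 member UMIs, 23.7 points, was 12.4 at 500 UMIs, 32.7 at 2000 and 37.5 without thinning. The cause was not tested where the setting's own construction does not show it. Over 136 alternatives of summed ratios in the 14 types, 89 stayed inside the main value's counting interval, 45 moved further and 2 turned. Changes of sign in border macrophages and regulatory T cells, whose main intervals held 0, lie outside those 2. In regulatory T cells (0.06) a looser gate gave -0.04, thinning -0.12 and leaving out Ifi27l2a -0.04. A stricter gate left under 50 cells in a library in all types but CD4 and other T cells. No paired analysis was possible because each group has 1 library. With 1 library of pooled mice per group, differences between mice, handling and treatment cannot be told apart.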

Other observations

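Types with under 50 cells in a library were not compared. Astrocytes held the list at 6112 CPM in 35 anti-PDCD1 cells and 2797 CPM in 21 anti-TIGIT cells. Endothelial cells held it at 5913 CPM in 14 anti-PDCD1 cells, and the anti-TIGIT library had none in the gate. Cells that met no gate held 3886 CPM in the anti-PDCD1 library (4507 cells) and 4178 CPM in the anti-TIGIT library (2247 cells), so the lean of the oligodendrocyte gate was not seen in them.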
